A study of Mus musculus with 6 samples.

Results

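The NF-κB transcription factor genes, 3 of their feedback genes and 2 adhesion genes were examined in Comma-Dβ cells after knockdown of Id4. The members were the 10 rows of the count table whose symbol is Rela, Rel, Relb, Nfkb1, Nfkb2, Nfkbia, Tnfaip3, Birc3, Icam1 or Vcam1 out of 25655 rows. All 10 were among the 13941 genes tested. Comma-Dβ is an established mouse mammary epithelial line, here at passage 29, grown with 2% serum, insulin and EGF. The siID4 arm (3 libraries) received the siGENOME mouse Id4 SMARTpool and the NT arm (3 libraries) the ON-TARGETplus non-targeting pool, both at 20 nM, and poly(A) RNA was sequenced from cells taken at 48 hr. The 2 arms therefore also differed in siRNA product line, which cannot be told apart from the target. No inflammatory ligand is named in the labels' protocols, so the levels below are those of cells in growth medium. The labels call the 3 libraries of an arm biological replicates without saying what separates them.

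NF-κB proteins work as dimers of 5 subunits. RelA, c-Rel and RelB carry the domain that activates transcription, while p50 and p52 are cut from the longer products of Nfkb1 and Nfkb2. In resting cells inhibitors such as IκBα, the product of Nfkbia, hold the dimers in the cytoplasm, and IκB kinases release them after signals from TNF, interleukin 1 or Toll-like receptors. The dimers then switch on genes that include their own brakes (Nfkbia and Tnfaip3), the survival gene Birc3, and surface proteins to which leukocytes adhere (Icam1 and Vcam1). Much of this control acts on proteins, which were not measured here.

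The libraries held 19.2 to 23.1 M counts. Levels are CPM values, which are counts relative to library size, scaled by the trimmed mean of M values (TMM), and 1 count was worth 0.0432 to 0.0522 CPM. Id4 itself was at 114 to 135 CPM in NT and 48.2 to 62.2 CPM in siID4, which is 46.3% of the NT mean (log2 fold change -1.11, SE 0.10, edgeR adjusted p = 8.65e-04). Throughout, a gene was called changed at an adjusted p under 0.05 by edgeR's quasi-likelihood method. Over all genes tested 4.62% were called higher and 4.93% lower. With the replicate number as a block in the fit these shares were 17.9% and 18.3%. Keratin genes and Epcam were abundant, with the 7 epithelial markers summing to 2300 to 2640 CPM in NT and 2120 to 2470 CPM in siID4. Of these, Epcam fell (log2 fold change -0.25, adjusted p = 0.0211), and Cdh1 (0.24, 0.0234) and Trp63 (0.27, 0.0279) rose. Epcam passed in 4 of the 6 fits without 1 library, and Cdh1 and Trp63 in 2 each. With the block 2 of the 7 were higher and 4 lower. Among markers of cells that usually carry ICAM1 and VCAM1, the 7 endothelial genes matched summed to 0.627 to 1.06 CPM in NT and 1.49 to 1.94 CPM in siID4, with Tie1 at 0 and Cdh5 at no more than 2 counts in any library. The 8 leukocyte genes matched summed to 3.19 to 3.56 CPM in NT and 3.89 to 4.34 CPM in siID4, with Ptprc at no more than 2 counts. None of the 4 endothelial and leukocyte markers tested was called, although Kdr had an adjusted p of 0.0742 (0.0106 with the block). Of 7 fibroblast markers 6 were tested, and 3 rose and 1 fell (4 and 2 with the block), with sums of 3150 to 3720 CPM in NT and 4430 to 5110 CPM in siID4. The part of such cells in the results below was not tested.

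Of the 10 members 2 were called. Icam1 rose 3.06-fold from a very low level, and Vcam1 fell to 0.753 of a moderate level, while the 5 subunit genes and the 3 feedback genes did not pass. Thus 1 of 10 members was called higher, against 4.62% of all genes tested, and 1 of 10 lower, against 4.93%. The median log2 fold change of the 10 was -0.01, beside 0.00 over all genes. With the replicate number as a block in the fit, 2 members were higher (Icam1 and the feedback gene Tnfaip3, beside 17.9% of all genes) and 3 lower (Vcam1 and the subunit genes Rela and Nfkb2, beside 18.3%). The arms did not overlap for 2 members that were higher (15.5% of all genes) and 2 that were lower (15.4%). Because RNA was taken from whole cultures, fewer cells with an mRNA and less of it per cell cannot be told apart.

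**Figure D1:**
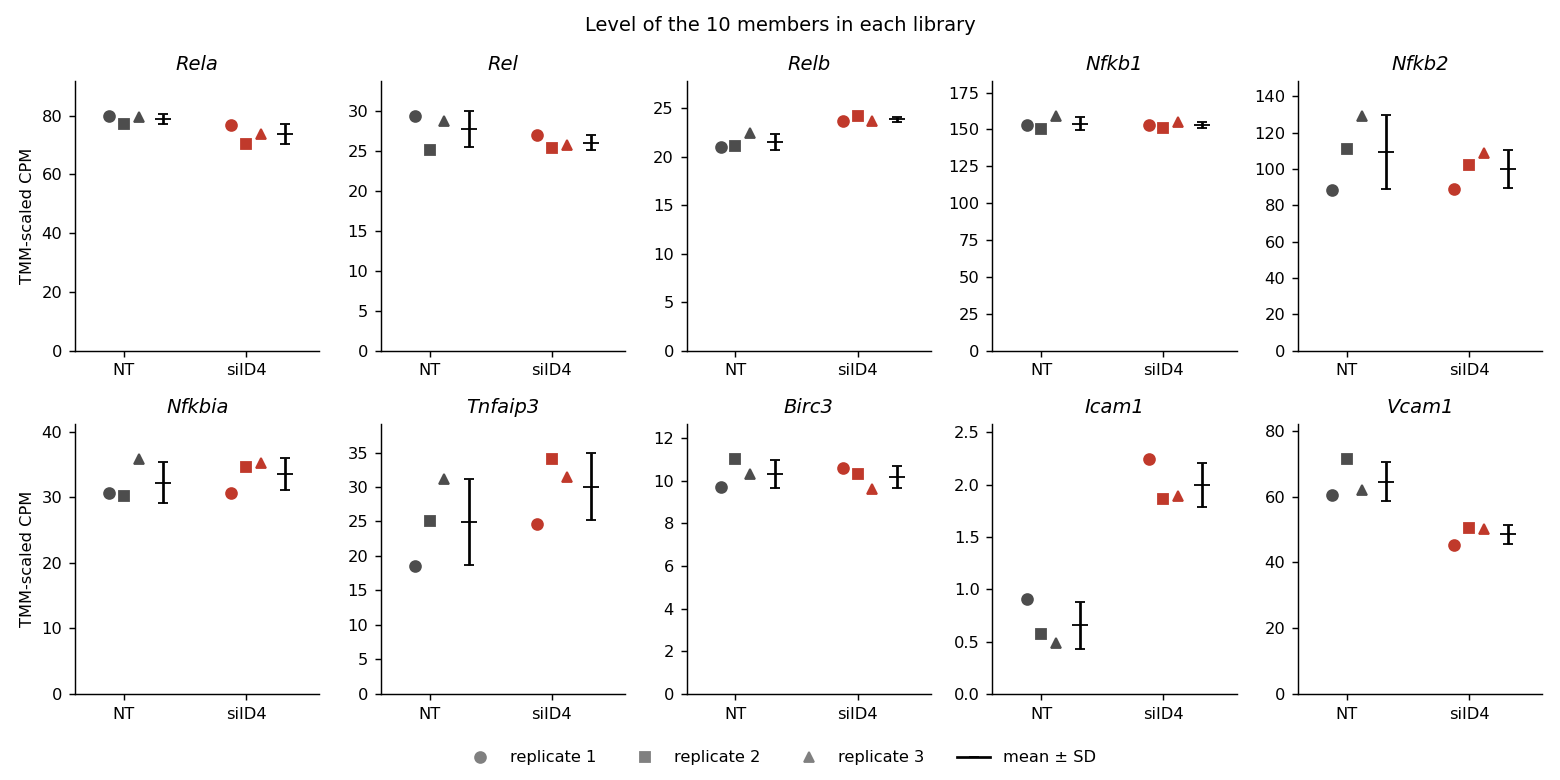
Level of each of the 10 members in TMM-scaled CPM on axes that start at 0, with 1 point per library (shape gives the replicate number) and bars for the mean ± SD of 3 libraries per arm. Icam1 and Vcam1 show a gap between arms, from at most 0.903 to at least 1.86 CPM and from at least 60.5 to at most 50.5 CPM, while Nfkb2 and Tnfaip3 spread widely within each arm.

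Upstream sequence is shown for Icam1, the member that changed most, and for Nfkbia, a classic NF-κB target that was not called, because both hold the same 9 bases of a κB-type motif. The 250 bases before the RefSeq start of each gene were read 5′ to 3′ on the gene's strand (GRCm38.p6), Icam1 from chr9:21015690-21015939 on the plus strand and Nfkbia from chr12:55492648-55492897 on the minus strand. Capitals mark matches to GGNNTTNCC or GGAANTTCC on either strand.
Icam1: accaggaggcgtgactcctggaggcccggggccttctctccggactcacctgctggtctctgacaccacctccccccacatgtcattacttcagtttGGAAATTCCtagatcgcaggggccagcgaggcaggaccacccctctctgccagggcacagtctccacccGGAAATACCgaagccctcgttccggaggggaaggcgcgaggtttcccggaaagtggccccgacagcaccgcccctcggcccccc
Nfkbia: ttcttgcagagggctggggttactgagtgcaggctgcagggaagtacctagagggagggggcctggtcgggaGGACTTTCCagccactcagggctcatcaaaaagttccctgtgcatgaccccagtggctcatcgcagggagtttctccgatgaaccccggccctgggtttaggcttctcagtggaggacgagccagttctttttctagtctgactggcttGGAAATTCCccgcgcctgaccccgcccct

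The palindromic motif GGAANTTCC was found in 3 of the 10 windows that RefSeq gives for 7 of the members, some with several starts, and in 0.928% of all 32544 windows of the same length (250 bases before to 50 after the start). In Icam1 it spans positions -153 to -145 and in Nfkbia -29 to -21, both as GGAAATTCC. The third was Tnfaip3, with GGAATTTCC at -24 to -16, which reads GGAAATTCC on the other strand. The looser motif GGNNTTNCC, which overlaps the first, was found in 7 of the 10 and in 15.9% of all windows. The 3 genes with the palindrome had log2 fold changes of 1.61 (Icam1), 0.06 (Nfkbia) and 0.26 (Tnfaip3), of which that of Icam1 was called. The members were picked as NF-κB genes and known targets, so their share of windows beside that of all windows is a description and no test. A match describes letters only and is not evidence of binding. No window was found in the table for Relb, Nfkb1 or Vcam1.

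Rela, which encodes the main activating subunit of the canonical pathway, stood at 79.8, 77.0 and 79.7 CPM in NT and 76.9, 70.4 and 73.9 CPM in siID4. Every siID4 library lay below every NT library, by a small margin. The log2 fold change was -0.10 (SE 0.05, 95% interval -0.21 to 0.02, edgeR adjusted p = 0.280), and with the replicate block the adjusted p was 0.0284. Leaving out any 1 library kept the value between -0.13 and -0.06 in the fit without a block, with no call.

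Rel, which encodes c-Rel, a subunit best known from lymphocytes, was measured at 29.4, 25.2 and 28.8 CPM in NT and 27.1, 25.4 and 25.8 CPM in siID4. The arms overlapped, and the log2 fold change was -0.09 (SE 0.08, interval -0.27 to 0.09, adjusted p = 0.520). Relb, whose product pairs with p52 in the non-canonical pathway, was at 21, 21.1 and 22.5 CPM in NT and 23.7, 24.2 and 23.7 CPM in siID4. Its arms did not overlap, with all siID4 libraries higher. The log2 fold change of Relb was 0.15 (SE 0.07, interval -0.01 to 0.30, adjusted p = 0.216, and 0.0501 with the block).

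Nfkb1, the source of p50, had the smallest fitted change of the 10. It was at 153, 150 and 159 CPM in NT and 153, 151 and 155 CPM in siID4, and its log2 fold change was -0.01 (SE 0.04, adjusted p = 0.929). The 95% interval of -0.11 to 0.09 corresponds to 0.928 to 1.06 times the NT level, so a change of the size seen in Vcam1 lies outside it. The sign of that small value turned to 0.02 with library totals in place of TMM and without NT replicate 3.

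Nfkb2, the source of p52 and itself an NF-κB target, varied more between replicates than between arms. It was at 88.2, 111 and 129 CPM in NT and 88.8, 102 and 109 CPM in siID4. In each arm the library numbered 1 was the lowest and the library numbered 3 the highest, so the arms overlapped. The log2 fold change was -0.13 (SE 0.13, interval -0.44 to 0.18, adjusted p = 0.608). Within replicate numbers the difference was 0.01, -0.12 and -0.24 in pairs 1 to 3, and the fit with the block called Nfkb2 lower (-0.12, adjusted p = 0.0171). Without NT replicate 3 the value without a block was 0.01. Nfkb2 overlaps Psd on the opposite strand. Psd held 21 to 46 counts per library, and the library kit keeps strand, but the strand setting of the counting is not stated.

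Set against one another per kb of gene length, the subunits kept their order in both arms. Nfkb1 was the highest at 49.1 ± 1.52 CPM per kb in NT and 48.8 ± 0.601 in siID4 (SD, n = 3 per arm), and Rel the lowest at 3.72 ± 0.302 and 3.50 ± 0.119. Nfkb2 and Rela were next to Nfkb1, and their NT libraries overlapped. The sum over the 5 subunits was 127 ± 8.05 CPM per kb in NT and 123 ± 3.07 in siID4, a difference smaller than the spread in NT. Relb made up 8.05%, 7.80% and 7.63% of that sum in NT and 9.08%, 9.17% and 8.67% in siID4. Its share was thus higher in every siID4 library. The shares of the other 4 subunits overlapped between arms. Among the remaining members Nfkbia was at 20.4 ± 1.95 CPM per kb in NT and Vcam1 at 20.3 ± 1.86, with libraries that overlapped. In siID4 they were at 21.3 ± 1.6 and 15.3 ± 0.909 and did not overlap. Tnfaip3 (6.42 ± 1.61 in NT and 7.73 ± 1.26 in siID4) and Birc3 (5.78 ± 0.379 and 5.69 ± 0.283) overlapped in NT only.

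**Figure D2:**
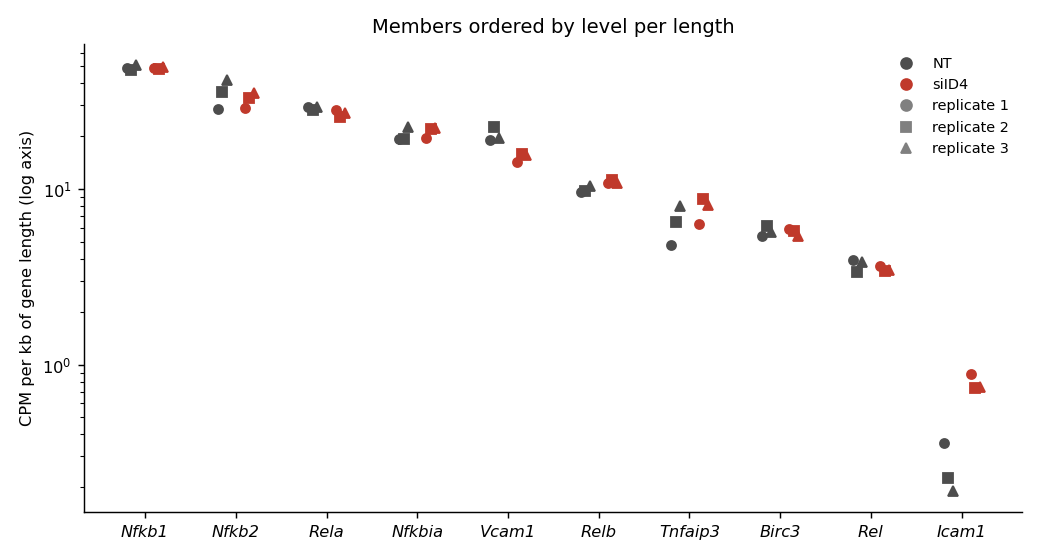
Level of each member in CPM per kb of gene length on a log axis, ordered by the NT mean, with 1 point per library coloured by arm. Nfkb1 stands at the top near 49 CPM per kb, and Icam1 is the lowest in both arms, at 0.257 ± 0.0869 in NT and 0.786 ± 0.0851 in siID4 (mean ± SD, n = 3).

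None of the 3 feedback genes passed the test without the block. Nfkbia, whose product IκBα pulls NF-κB back out of the nucleus, was at 30.7, 30.2 and 35.8 CPM in NT and 30.7, 34.7 and 35.3 CPM in siID4. The arms overlapped and the log2 fold change was 0.06 (SE 0.09, interval -0.14 to 0.26, adjusted p = 0.741). Birc3, which encodes cIAP2, a ubiquitin ligase of TNF receptor complexes, was at 9.69, 11 and 10.3 CPM in NT and 10.6, 10.3 and 9.60 CPM in siID4. Its log2 fold change was -0.02 (SE 0.10, interval -0.24 to 0.20, adjusted p = 0.926). Birc3 resembles its neighbour Birc2, and 1 NT library gave it a fractional count (211.32), so a small part of its reads was shared out by estimate.

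Tnfaip3, which encodes the deubiquitinase A20, had the widest spread of the 3 feedback genes. It was at 18.6, 25.1 and 31.1 CPM in NT and 24.6, 34.0 and 31.5 CPM in siID4. The lowest siID4 library lay below the higher NT libraries, so the arms overlapped. The log2 fold change was 0.26 (SE 0.19, interval -0.17 to 0.70, adjusted p = 0.437). Within replicate numbers the difference was 0.40, 0.44 and 0.02, and the fit with the block called Tnfaip3 higher (0.27, adjusted p = 0.00704). Without NT replicate 1 the value without a block was 0.09, and without NT replicate 3 it was 0.46.

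**Figure D3:**
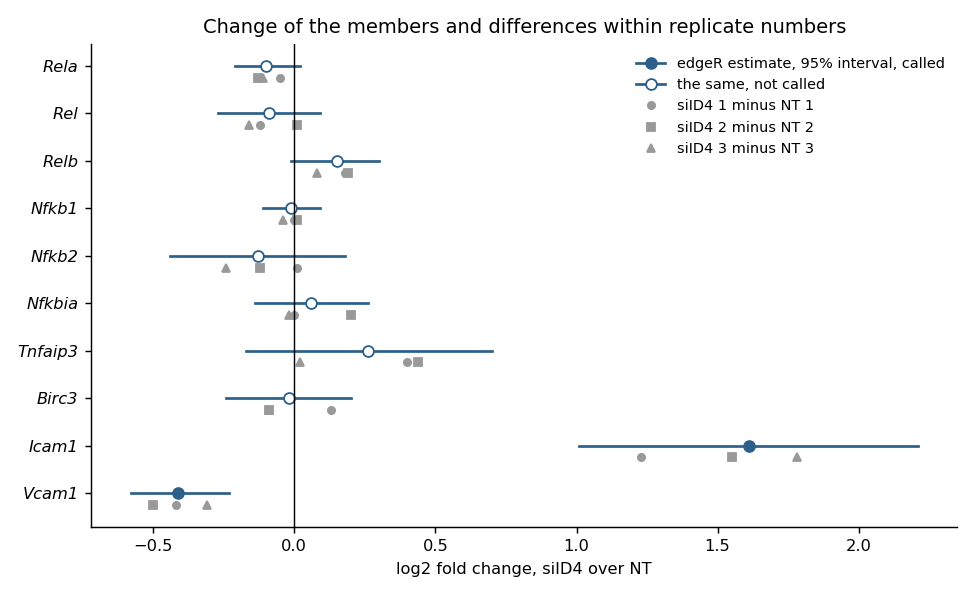
Log2 fold change of each member, siID4 over NT, with the edgeR estimate and its 95% interval (filled where called) and, in grey below it, the differences between same-numbered libraries in log2 CPM with a prior count of 2. The intervals of Icam1 (1.01 to 2.21) and Vcam1 (-0.58 to -0.23) lie away from 0, and those of the other 8 members include it.

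Icam1 encodes an immunoglobulin-family surface protein bound by the β2 integrins of leukocytes. It was detected by 18, 11 and 11 counts in NT and 52, 41 and 43 counts in siID4, or 0.903, 0.574 and 0.484 CPM against 2.24, 1.86 and 1.89 CPM. Every siID4 library was at least 2 times the highest NT library. The log2 fold change was 1.61 (SE 0.27, interval 1.01 to 2.21, adjusted p = 0.00692), which is 3.06-fold with an interval from 2.02 to 4.64. An exact two-sided permutation test of the 3 against 3 libraries gave p = 0.1, the smallest it can give. That test gave the same p for Vcam1, Rela and Relb, whose arms also did not overlap, so it adds nothing to the gap itself. The value without 1 library ranged from 1.42 to 1.91 and was called in all 6 such fits. In size it stood at the 99.8th percentile of absolute log2 fold changes over all genes tested.

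In GRCm38 Icam1 occupies chromosome 9, 21015985 to 21028817, plus strand. The annotation places Gm47079 on the opposite strand over Icam1, and Gm43109 over Vcam1. By gene ID the row for Gm43109 held at most 2 counts in any library. Gm47079 was not matched to a row, and since the strand setting of the counting is unknown, the part of its reads in the Icam1 counts was not tested. The neighbours of Icam1 from the same family on that strand are Icam4, which starts 556 bases downstream and had 0 counts in 5 libraries and 2 in the other, and Icam5. Icam5 was at 13, 14 and 19 counts in NT and 26, 21 and 25 in siID4 (log2 fold change 0.51, adjusted p = 0.228). Even after the rise Icam1 was the lowest member per kb, at 0.786 CPM per kb against 3.50 for Rel, the next.

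Vcam1, which encodes the ligand of the integrins α4β1 and α4β7, moved the other way. It was at 60.5, 71.3 and 61.9 CPM in NT and 45.3, 50.5 and 50 CPM in siID4. All siID4 libraries lay below all NT libraries. The log2 fold change was -0.41 (SE 0.08, interval -0.58 to -0.23, adjusted p = 0.0125), or 0.753 of the NT level. With 1 library left out it ranged from -0.45 to -0.33, and without siID4 replicate 2 the adjusted p was 0.0525. The within-number differences were -0.42, -0.50 and -0.31. Vcam1 occupies chromosome 3, 116109949 to 116129688, minus strand.

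The 11 genes for partners of ICAM1 and VCAM1 were integrin chains and the linkers ezrin, moesin and radixin. Of the 6 that were tested, 0 rose and 2 fell, beside 4.62% and 4.93% of all genes (1 and 3 with the block, beside 17.9% and 18.3%). Itgb2, the β2 chain that binds ICAM1, was at 2.56, 2.30 and 1.63 CPM in NT and 0.993, 0.725 and 0.658 CPM in siID4 (a log2 change of -1.43, SE 0.27, adjusted p = 0.0115). Itgb7, the β7 chain that pairs with α4, was at 4.37, 4.02 and 5.90 CPM in NT and 1.81, 2.36 and 2.59 CPM in siID4 (-1.09, SE 0.20, adjusted p = 0.0121). Neither gene's arms overlapped. Without siID4 replicate 2 neither passed (adjusted p = 0.0652 and 0.0598), nor did Itgb2 without NT replicate 2 (0.0515). The list had no other called gene. The listed α chains that join Itgb2 or Itgb7, which are Itgal, Itgam, Itgax and Itga4, had at most 8 counts in any library. Partner chains outside the list were not examined. Itgb1, the abundant β1 chain, was at 1050 ± 53.9 CPM in NT and 1070 ± 34.5 CPM in siID4 (mean ± SD, n = 3) and was not called.

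Of 18 other adhesion receptors of the immunoglobulin family, 12 were tested, and 2 rose and 0 fell, beside 4.62% and 4.93% of all genes. With the block 3 rose and 3 fell, beside 17.9% and 18.3%. The list median was 0.01. Ncam1, a neural adhesion protein, was at 47.6, 47.8 and 44.6 CPM in NT and 67.1, 64.4 and 62.2 CPM in siID4 (a log2 change of 0.47, SE 0.06, adjusted p = 0.00235). Mcam, also known as CD146, was at 19.8, 18.8 and 23.9 CPM in NT and 28.7, 25.2 and 33.0 CPM in siID4. Its log2 fold change was 0.47 (SE 0.12, adjusted p = 0.0401), and it passed in 1 of the 6 fits without 1 library, the one without NT replicate 3, with adjusted p up to 0.146 in the others. Icam2 and Madcam1 had at most 5 counts in a library.

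**Figure D4:**
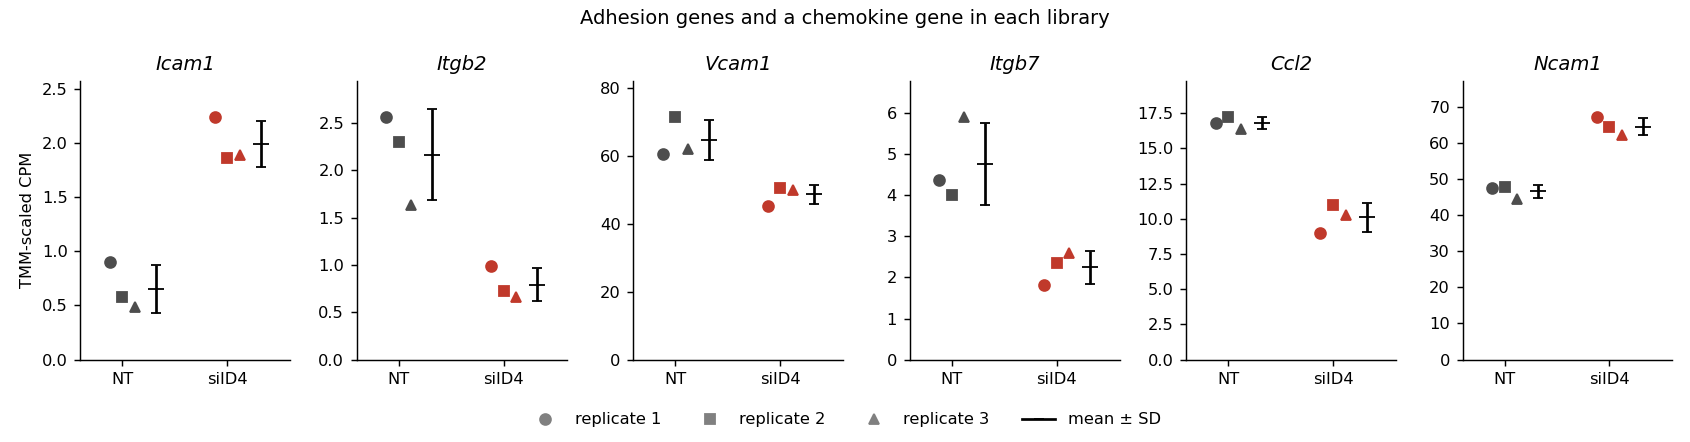
TMM-scaled CPM per library on axes that start at 0 for Icam1 and the chain of its integrin receptors Itgb2, Vcam1 and the receptor chain Itgb7, the chemokine gene Ccl2 and Ncam1, with mean ± SD of 3 libraries per arm. Icam1 and Ncam1 are higher in every siID4 library, and the other 4 are lower.

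Genes of the signalling steps above NF-κB were called about as often as all genes. Of 25 receptor and adaptor genes, 24 were tested, and 1 rose and 1 fell, beside 4.62% and 4.93% of all genes (3 and 4 with the block, beside 17.9% and 18.3%), and the list median was -0.03. Tlr3, a receptor for double-stranded RNA, was at 65.7, 72.8 and 65.4 CPM in NT and 77.4, 83.6 and 82.3 CPM in siID4 (a log2 change of 0.26, SE 0.06, adjusted p = 0.0298). It passed in 2 of the 6 fits without 1 library, those without NT replicate 2 and without siID4 replicate 1, and the adjusted p reached 0.142 without siID4 replicate 2. Irak1, a kinase below the interleukin 1 and Toll-like receptors, went from 91.6 ± 0.253 to 80.6 ± 0.838 CPM (mean ± SD, n = 3, log2 fold change -0.18, SE 0.04, adjusted p = 0.0304). Irak1 passed in 0 of the 6, with adjusted p from 0.0578 to 0.119. It also missed with library totals (0.0571) and with no filter on low counts (0.0594). Cd40 was at 0 counts in all 6 libraries.

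Of 7 kinase genes 0 were called, beside 4.62% of all genes higher and 4.93% lower. With the block 1 was higher and 2 lower, beside 17.9% and 18.3%, and the list median was 0.05. Ikbkb, the main canonical IκB kinase, was at 85.5 ± 1.06 CPM in NT and 89.1 ± 2.70 in siID4 (log2 fold change 0.06, adjusted p = 0.466). Map3k14, which encodes the non-canonical kinase NIK and is named after its values were seen, was at 33.4, 35.9 and 38.9 CPM in NT and 27.0, 30.8 and 30.6 CPM in siID4. Its arms did not overlap, and the adjusted p was 0.0572 for a log2 fold change of -0.29 (7.52e-05 with the block). The kinase count of 0 depends on the setting. Map3k14 was called lower with DESeq2 (adjusted p = 0.0342) and when genes with low counts were kept (0.0414). Of the 6 fits lacking 1 library, it passed only in that lacking NT replicate 1 (0.0385), with adjusted p up to 0.164 in the others. Of 14 further inhibitors and feedback genes, which include Nfkbib, Nfkbie, Nfkbiz, Tnip1 and Cyld, 0 were called (2 higher and 2 lower with the block), beside the same shares of all genes. Their log2 fold changes ran from -0.22 to 0.22 with a median of 0.03.

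Of 33 other NF-κB targets 23 were tested, and 0 rose and 3 fell, beside 4.62% and 4.93% of all genes (6 and 9 with the block, beside 17.9% and 18.3%). The list median was -0.15. The count of 0 depends on the setting. Irf1 passed as higher with library totals (adjusted p = 0.0473), with no filter on low counts (0.0259), with DESeq2 (0.0301) and without siID4 replicate 1 (0.0209), Il6 with library totals (0.0470), and Gadd45b with DESeq2 (0.00981) and without NT replicate 3 (0.0124). Ccl2, which encodes a monocyte chemokine, was at 16.8, 17.2 and 16.4 CPM in NT and 8.98, 11 and 10.3 CPM in siID4, with no overlap (log2 fold change -0.73, SE 0.10, adjusted p = 0.00310). Ccl2 passed without any 1 library. Cxcl10, a chemokine that interferons also induce, was at 5.97, 6.37 and 5.32 CPM in NT and 4.19, 4.12 and 4.03 CPM in siID4 (-0.51, SE 0.13, adjusted p = 0.0362). Csf1, a macrophage growth factor gene, was at 276, 264 and 235 CPM in NT and 219, 223 and 204 CPM in siID4 (-0.26, SE 0.06, adjusted p = 0.0360). Cxcl10 and Csf1 each passed in 1 of the 6 fits, the one without NT replicate 3, with adjusted p up to 0.133 and 0.126 in the others. Cxcl10 missed with DESeq2 (0.0642), and Csf1 with library totals (0.0580) and at a minimum mean of 5 CPM (0.0501). Tnf and the chemokine gene Ccl20 had at most 4 counts in a library, Il1b had 0 in all 6, and the endothelial selectin genes Sele and Selp had at most 1.

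Many but not all of the listed interferon-inducible genes were higher in siID4, as Icam1 was, and their part in its rise was not tested. The arms did not overlap for 20 of them, all higher, beside 15.5% of all genes. Ifit1, Ifit2, Rsad2 and Mx1 overlapped between arms and were not called without the block. All 24 listed genes were tested, and 12 rose and 0 fell, beside 4.62% and 4.93% of all genes. With the block 18 rose and 0 fell, beside 17.9% and 18.3%, and the median log2 fold change was 0.95. That list resembles one already known to be higher in these libraries, so its count is a description. The 24 summed to 1040, 854 and 648 CPM in NT replicates 1 to 3 and 1710, 1620 and 1460 CPM in the same-numbered siID4 libraries. Among them Oas2, whose enzyme senses double-stranded RNA, averaged 3.37 ± 0.645 CPM in NT and 12.6 ± 1.88 in siID4 (mean ± SD, n = 3 per arm, log2 fold change 1.91, adjusted p = 5.85e-04). Gbp2, a GTPase of antimicrobial defence, went from 48.3 ± 7.86 to 108 ± 8.89 CPM (1.16, adjusted p = 0.00149). The immunoproteasome gene Psmb8 rose by 0.67, and Bst2, Xaf1 and Usp18 by 1.27, 1.17 and 1.47. Usp18 was not called when genes with low counts were kept (adjusted p = 0.0590).

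**Figure D5:**
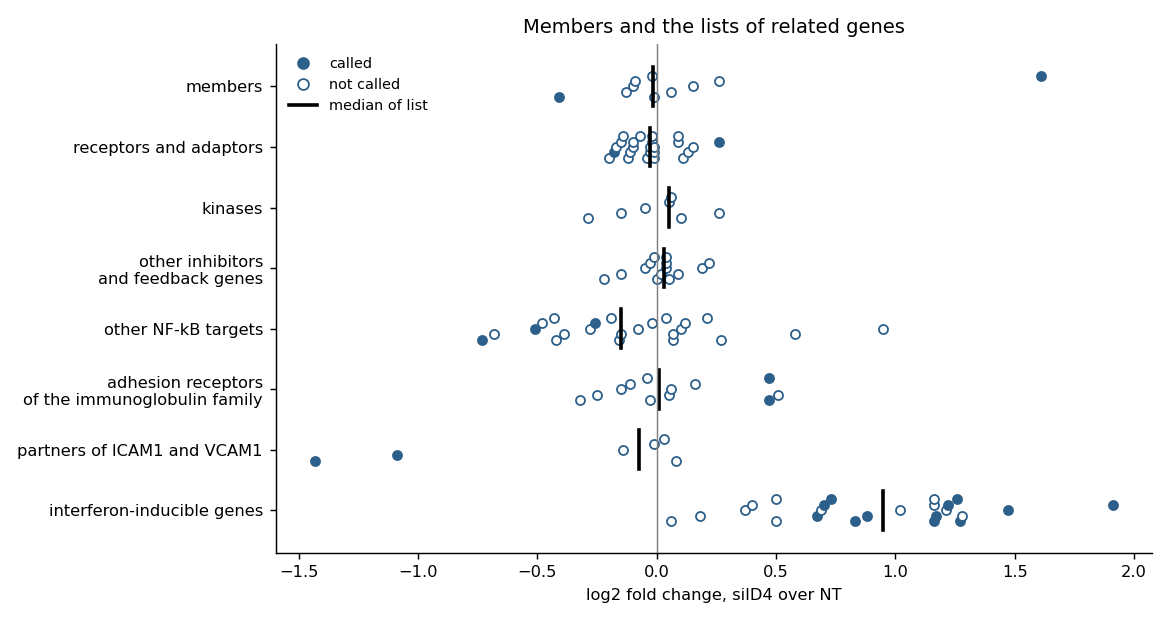
Log2 fold change of every tested gene, siID4 over NT, in the members and in 7 lists of related genes, with called genes filled and a black bar at each list's median. The interferon-inducible list lies to the right (median 0.95), while the medians of the other 6 lists lie between -0.15 and 0.05.

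The genes whose pattern over the 6 libraries was most like that of Icam1 were sought among 10799 genes averaging 5 CPM or more, by Pearson correlation of log2 CPM. They were Adamts2 (r = 0.999), Parm1 (0.996), Bst2 (0.996), Shisa5 (0.994) and Wisp2 (0.994). The points share the 2 arms, so any gene with a similar gap between arms scores high, and the values describe these libraries only. Adamts2, an enzyme that trims procollagen, was at 50.4, 43.6 and 42.8 CPM in NT and 66.9, 63.0 and 63.5 CPM in siID4. As for Icam1, its replicate 1 was the highest in each arm.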

How the data were processed

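RNA from 6 samples, 3 per arm, was measured by poly(A) RNA sequencing. The authors deposited 1 table of expected counts per gene with gene lengths, made with cutadapt, STAR and RSEM on mm10, per the submitters' processing notes. Their versions, annotation and strand setting are not stated. Expected counts share out reads that fit several genes by estimate. They were rounded to whole numbers for testing.

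Genes were tested by quasi-likelihood in edgeR 4.0.16 (R 4.3.3), with TMM scaling, filterByExpr and robust dispersions, fitted on the whole table, with Benjamini-Hochberg adjustment over 13941 genes. SEs come from the F statistic and intervals are 95%. P-values measure the spread between these libraries, whose biological coefficient of variation was 7.83%. Every pair of replicates differed by more than counting noise, with a chi-square of at least 5.10 for each gene on average. Per-length levels are CPM divided by the deposited length in kb. The code was checked on simulated data.

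Same-numbered libraries deviated together in all 3 pairs (correlation across genes 0.42, 0.14 and 0.38, and at most -0.02 for other pairings), so the fit with the replicate number as a block is given where it changes a call. Deviations were taken from each arm's mean, so positive same-number values force the other pairings to be negative on balance. The other pairings are therefore no separate contrast.

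The members and lists were chosen with earlier results of these data known. Named genes are the members, the called genes of each list (at most 6, by adjusted p) and the 5 genes most correlated with the member that changed most. Of the listed symbols, Pvrl1 and Pvrl3 stand for Nectin1 and Nectin3, and Nectin2, Cldn5 and Adgre1 were not matched. Positions are from GENCODE M21 (GRCm38, the assembly of mm10) and promoter windows from RefSeq (GRCm38.p6). Alternatives were other scalings (DESeq2 size factors, upper quartile, library totals), other filters, DESeq2 1.42.0, limma-voom (limma 3.58.1), the block and each library left out.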

Additional observations from a re-analysis of the deposited data

How the results depend on the processing

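The call of Icam1 held in every alternative that tested it, and that of Vcam1 in all but the fit without siID4 replicate 2. At a minimum mean of 5 CPM, 0 members were called higher, because Icam1 is below that level and is not tested. With the replicate block 2 members were higher and 3 lower. Without 1 library, 1 member was higher in each fit and 0 to 1 lower. The sign of members near 0 turned for Nfkb1 (0.02 with library totals and without NT replicate 3, -0.03 to 0.02 without 1 library), Nfkb2 (0.01 without NT replicate 3, range -0.26 to 0.01) and Birc3 (0.01 with library totals, 0.03 without NT replicate 2, 0.02 without siID4 replicate 3, range -0.06 to 0.03).

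Over the 7 lists of related genes, 15 genes were called higher and 6 lower, beside 4.62% and 4.93% of all genes. Of the 15 higher genes, 12 were in the interferon-inducible list, 2 in the adhesion receptor list and 1 among receptors and adaptors. DESeq2 called 25 and 10, the replicate block 34 and 23 (beside 17.9% and 18.3% of all genes), and the fit at a minimum mean of 5 CPM 20 and 2. Without 1 library 11 to 21 were higher and 1 to 7 lower, with 1 lower without siID4 replicate 2, 2 without NT replicate 2, and 3 without siID4 replicate 1 or 3. Over all genes, 644 were higher and 687 lower, against 221 and 224 without siID4 replicate 2, and 291 and 340 without NT replicate 2. Without NT replicate 1, a fit with equally few samples, 686 were higher and 665 lower. The causes of these differences were not tested. With library totals the split was 19 higher and 4 lower. Icam1 rests on 11 to 52 counts per library, so its size is known less well than that of the other members, as its interval shows.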

Other observations

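Spread between replicates set the members apart from one another. In NT the coefficient of variation was 33.8% for Icam1, which had 11 to 18 counts there, 25.1% for Tnfaip3 and 18.6% for Nfkb2, against 2.01% for Rela and 3.08% for Nfkb1, and the median over the 10799 genes averaging 5 CPM or more was 6.21%. In siID4 the values for Icam1, Tnfaip3 and Nfkb2 were 10.8%, 16.2% and 10.2%, against a median of 5.59%. Icam1 averaged under 5 CPM and is not among the genes of these medians. Its spread was not separated from the counting noise of so few counts. Nfkb2 was lowest in replicate 1 and highest in replicate 3 of both arms, as were 10.2% of all genes tested and the inhibitor genes Nfkbib, Nfkbie and Zc3h12a. The opposite order, highest in replicate 1 and lowest in replicate 3 of both arms, held for 16 of the 24 interferon-inducible genes and for 11.4% of all genes tested. These orders were looked for after the values were seen and carry no test.

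Of the other NF-κB targets, 6 were higher and 9 lower with the block, beside 17.9% and 18.3% of all genes. Of those that missed the threshold without it, 5 are described here, picked after their values were seen. They do not stand for the rest. Irf1 (0.27 with the block, edgeR adjusted p = 0.0601 without it and 2.56e-07 with it) and Lif (-0.46, 0.155 and 0.000499) are among the others. In the edgeR fit with the block Id4 itself (-1.11) had an adjusted p of 0.0113, so small values in that fit did not follow the size of a change. Ptgs2, the inducible cyclooxygenase gene, was at 160, 222 and 168 CPM in NT and 130, 161 and 129 CPM in siID4 (-0.39, edgeR adjusted p = 0.129, 4.71e-11 with the block, and 0.0195 with DESeq2). Ier3, an early response gene, was at 65.0, 88.1 and 87.6 CPM in NT and 52.6, 64.3 and 63.4 CPM in siID4 (-0.42, adjusted p = 0.0800, 3.48e-10 with the block, 0.00941 with DESeq2, and 0.00621 without NT replicate 1). The cytokine gene Il6 was at 0.803, 0.731 and 0.572 CPM in NT and 1.25, 1.63 and 1.18 CPM in siID4, with no overlap. It had at most 36 counts in a library. Its log2 fold change was 0.95 (edgeR adjusted p = 0.0514, 0.00624 with the block, 0.0470 with library totals, and 0.155 with DESeq2). Il6 passed in 0 of the 6 fits without 1 library, with adjusted p up to 0.193. The neutrophil chemokine gene Cxcl1 was at 12.9, 18.3 and 15.6 CPM in NT and 6.65, 12.4 and 10.2 CPM in siID4 (-0.68, adjusted p = 0.0931, 9.41e-08 with the block, and 0.0142 with DESeq2). Gadd45b, a stress gene, was at 17.0, 15.6 and 24.4 CPM in NT and 24.2, 27.9 and 33.8 CPM in siID4 (0.58, adjusted p = 0.0851, 2.89e-08 with the block, 0.00981 with DESeq2, and 0.0124 without NT replicate 3). With no filter on low counts all 5 missed (edgeR adjusted p = 0.389 for Ptgs2, 0.249 for Ier3, 0.0595 for Il6, 0.246 for Cxcl1 and 0.279 for Gadd45b).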
